A study of Spodoptera frugiperda with 18 samples.

Results

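The last 2 larval stages of the fall armyworm, Spodoptera frugiperda, instars 5 and 6, were compared with the middle stages, instars 2, 3 and 4. The 5 libraries were chosen by their labelled stage out of 18 in the series, which runs from egg to adult. The fall armyworm is a moth whose caterpillars eat maize and other crops, and its last instar is the stage that stops feeding and becomes the prepupa. Each library was made from total RNA, each instar has 1 library, and the labels give no sex, tissue, strain, rearing or treatment. Instars 5 and 6 therefore served as the 2 replicates of the late larva and instars 2, 3 and 4 as the 3 replicates of the middle larva. The spread within a group holds differences between instars as well as between libraries. The labels also do not say whether libraries came from separate cultures or how many larvae went into one, and each p-value therefore reflects no more than how these 5 samples vary, which may be technical.

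MicroRNAs (miRNAs) are short RNAs that guide repressor complexes to messenger RNAs, mainly through the seed, bases 2 to 8 of the mature sequence. Each precursor hairpin can give a miRNA from its 5p arm and one from its 3p arm. In flies, a pulse of the moulting hormone ecdysone without juvenile hormone starts metamorphosis, and the let-7 complex, a single transcript with miR-100, let-7 and miR-125, is switched on around that time. miR-34 lies outside this complex, and in flies it is lowered by ecdysone and raised by juvenile hormone.

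Counts summed over miRNAs were 270367 in instar 5 and 796582 in instar 6, against 331270 in instar 2, 230451 in instar 3 and 260085 in instar 4. Levels are in CPM, which here means counts divided by library size and by the TMM composition factors of these 5 libraries, and 3 counts were worth between 4.34 CPM in instar 6 and 12.4 CPM in instar 5. This floor is for counting error alone, and the labels mention no molecular identifiers that would separate PCR copies from molecules. Of 660 distinct rows of the table, 548 had a count in these libraries and those with a mean of at least 10 counts were tested. Family names end in -x, read here as the 5p arm, -y, read as the 3p arm, or -z, and names that begin with sfr- are those of the armyworm. In instar 5, 0.838% of counts came from a list of 37 rows with names known from vertebrates, against 0.175% in instar 4 and at most 0.00996% in instars 2, 3 and 6. Their part in the results was not tested, and the count of called miRNAs and the shares of changes between successive instars are also given without them.

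The sequences of the miRNAs that the comparison turns on are given first, 5′ to 3′ as listed in the deposited table, with the seed in capitals. Those higher in the late instars come first and show that the 2 rows of miR-10505 are 1 sequence shifted by 1 base, so that they have different seeds.
sfr-miR-10505-3p: tAGGGTTAgaaacttggctc
miR-10505-y: gTAGGGTTagaaacttggctc
sfr-miR-2765-5p: tGGTAACTccaccaccgttggc
sfr-miR-34-5p: tGGCAGTGtggttagctggttgt
let-7-y: cTGTACGGcctactaactttcc
miR-8-x: cATCTTACcgggcagcattaga
miR-745-y: cAGCTGCCtagcgaagggcaac
predicted m0010-5p: cGGCTCATcgtatggcagtttgct
predicted m0016-5p: cCATCCCTcacatgatgtaact
predicted m0021-3p: cCCAGGAAtcaaacatattacac
The next set was lower in the late instars.
miR-124-y: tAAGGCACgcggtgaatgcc
miR-981-y: tTCGTTGTcgacgaaacct
miR-6497-y: cGGATGCGgccggtgccg
miR-927-y: cAAAGCGTttggattctaaaa
predicted m0105-5p: aTTCCAATgttcgttagtgatat
predicted m0056-3p: aGCCGTTCgagatttacttaag
predicted m0080-5p: tGACGTCAgggattacgcaagct
The last set belongs to the let-7 complex and is shown because miR-99-x is miR-100-x without its last bases.
miR-100-x: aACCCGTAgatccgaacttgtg
miR-100-z: aACCCGTAgatccgaacttgtga
miR-99-x: aACCCGTAgatccgaacttg
let-7-x: tGAGGTAGtaggttgtatag

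The late instars differed from the middle instars in 17 miRNAs, 7.69% of those tested, with a threshold of 0.05 on the adjusted p from edgeR (quasi-likelihood test). Of these, 10 were higher (4.52%) and 7 were lower (3.17%). An unadjusted p under 0.05 was reached by 77 miRNAs (34.8%), 31 higher and 46 lower. The median log2 fold change of all tested miRNAs was 0.00725. All 17 had 2 late values that did not overlap the 3 middle values, which was also true of 57% of all tested miRNAs. Of the 17 calls, at most 2 remained when 1 library was left out. Leaving out instar 2, 3, 4 or 6 left 0 called by edgeR, with 61, 47, 75 and 47 at an unadjusted p under 0.05, and leaving out instar 5 left 3, of which 2 were among the 17 (sfr-miR-34-5p and predicted m0105-5p). The log2 fold changes of the 17 kept their sign, and that of sfr-miR-2765-5p, for example, ran between 2.90 and 4.29. The DESeq2 Wald test called 68, and edgeR called 46 of 209 without the vertebrate-named list.

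**Figure D1:**
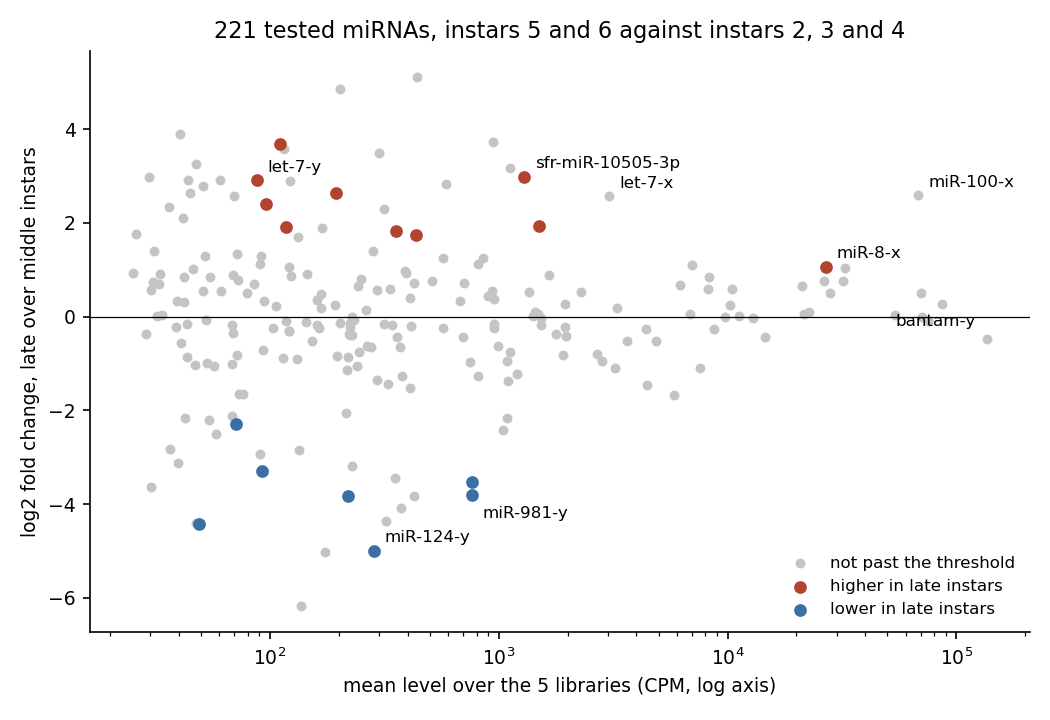
Log2 fold change of the late over the middle instars for every tested miRNA (vertical axis) against their mean level over the 5 libraries in CPM (log horizontal axis), with 10 called miRNAs higher in the late instars in red, 7 lower in blue and the rest in grey. miR-8-x is the called miRNA with the highest level, and miR-100-x and let-7-x lie high without passing the threshold.

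Among the miRNAs that rose, both rows of miR-10505 were higher in the late instars. sfr-miR-10505-3p had 3237 and 2192 CPM in instars 5 and 6, against 188, 365 and 476 CPM in instars 2, 3 and 4 (log2 2.98, SE 0.46, adjusted p = 0.0338 by edgeR). Its late values were both more than every middle value, and the middle values differed among themselves. miR-10505-y, the row that begins 1 base earlier, had 214 and 163 CPM in instars 5 and 6, against 38.8, 24.3 and 42.0 CPM in instars 2, 3 and 4 (log2 2.41, SE 0.38, adjusted p = 0.0338 by edgeR). The pair are near copies, a term used here for sequences with no more than 2 differences in 18 or more bases, and may share reads.

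sfr-miR-2765-5p had 140.0 and 354 CPM in instars 5 and 6. The middle instars 2, 3 and 4 had 11.1, 32.4 and 14 CPM, from only 4, 8 and 4 counts. It rose by 3.69 on the log2 scale (SE 0.68, adjusted p = 0.0419 by edgeR), and instar 6 stood above instar 5.

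sfr-miR-34-5p had 268 and 517 CPM in instars 5 and 6, against 66.4, 52.7 and 69.9 CPM in instars 2, 3 and 4 (log2 2.63, SE 0.39, adjusted p = 0.0338 by edgeR). The middle values lay close together and the late values were spread. Its other arm, sfr-miR-34-3p, had 94.7 and 57.9 CPM in instars 5 and 6 and 60.9, 68.9 and 24.5 CPM in instars 2, 3 and 4, with overlap between the groups (adjusted p = 0.550 by edgeR).

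miR-8-x, the 5p arm of a miRNA that promotes insulin signalling and growth in the fly fat body, had the highest level of the 17. It had 36164 and 42598 CPM in instars 5 and 6, against 15676, 20310 and 20314 CPM in instars 2, 3 and 4, means of 39381 ± 4550 CPM (SD, n = 2) and 18767 ± 2676 CPM (SD, n = 3). It rose by 1.07 on the log2 scale (SE 0.18, adjusted p = 0.0409 by edgeR). The 3p arm miR-8-y, the form known to be active in flies, overlapped between groups with 83926 and 57436 CPM in instars 5 and 6 and 71762, 69726 and 71019 CPM in instars 2, 3 and 4 (log2 -0.00320, adjusted p = 0.992 by edgeR). Another row, miR-8-z, a near copy of miR-8-y, had 36444 and 31563 CPM in instars 5 and 6, against 24907, 22592 and 24356 CPM in instars 2, 3 and 4 (adjusted p = 0.0801 by edgeR). miR-8-x in turn has a near copy in miR-200-x.

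miR-745-y had 857 and 647 CPM in instars 5 and 6, against 169, 247 and 259 CPM in instars 2, 3 and 4 (log2 1.74, SE 0.31, adjusted p = 0.0419 by edgeR). Its near copy miR-745-z had 132 and 91.1 CPM in instars 5 and 6 and 49.8, 60.8 and 94.4 CPM in instars 2, 3 and 4, with overlap (adjusted p = 0.303 by edgeR). Summed over their shared seed, which miR-22-y also carries, the difference did not pass (log2 1.59, adjusted p = 0.0675 by edgeR). Predicted m0010-5p, a near copy of miR-745-x, had 3106 and 2284 CPM in instars 5 and 6, against 725, 624 and 773 CPM in instars 2, 3 and 4 (log2 1.93, SE 0.23, adjusted p = 0.0312 by edgeR). miR-745-y and m0010-5p were higher in instar 5 than in instar 6. Predicted miRNAs carry no family name in the deposited table, and 35 of them were tested.

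The other predicted miRNAs that rose were flat over the middle instars. Predicted m0016-5p had 202 and 218 CPM in instars 5 and 6, against 55.4, 52.7 and 59.4 CPM in instars 2, 3 and 4. Predicted m0021-3p had 684 and 573 CPM in instars 5 and 6, against 169, 170.3 and 189 CPM in instars 2, 3 and 4. This sequence is a near copy of miR-190-y and has the same seed. The log2 fold changes of m0016-5p and m0021-3p were 1.91 and 1.83, with adjusted p = 0.0338 and 0.0323 by edgeR.

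**Figure D2:**
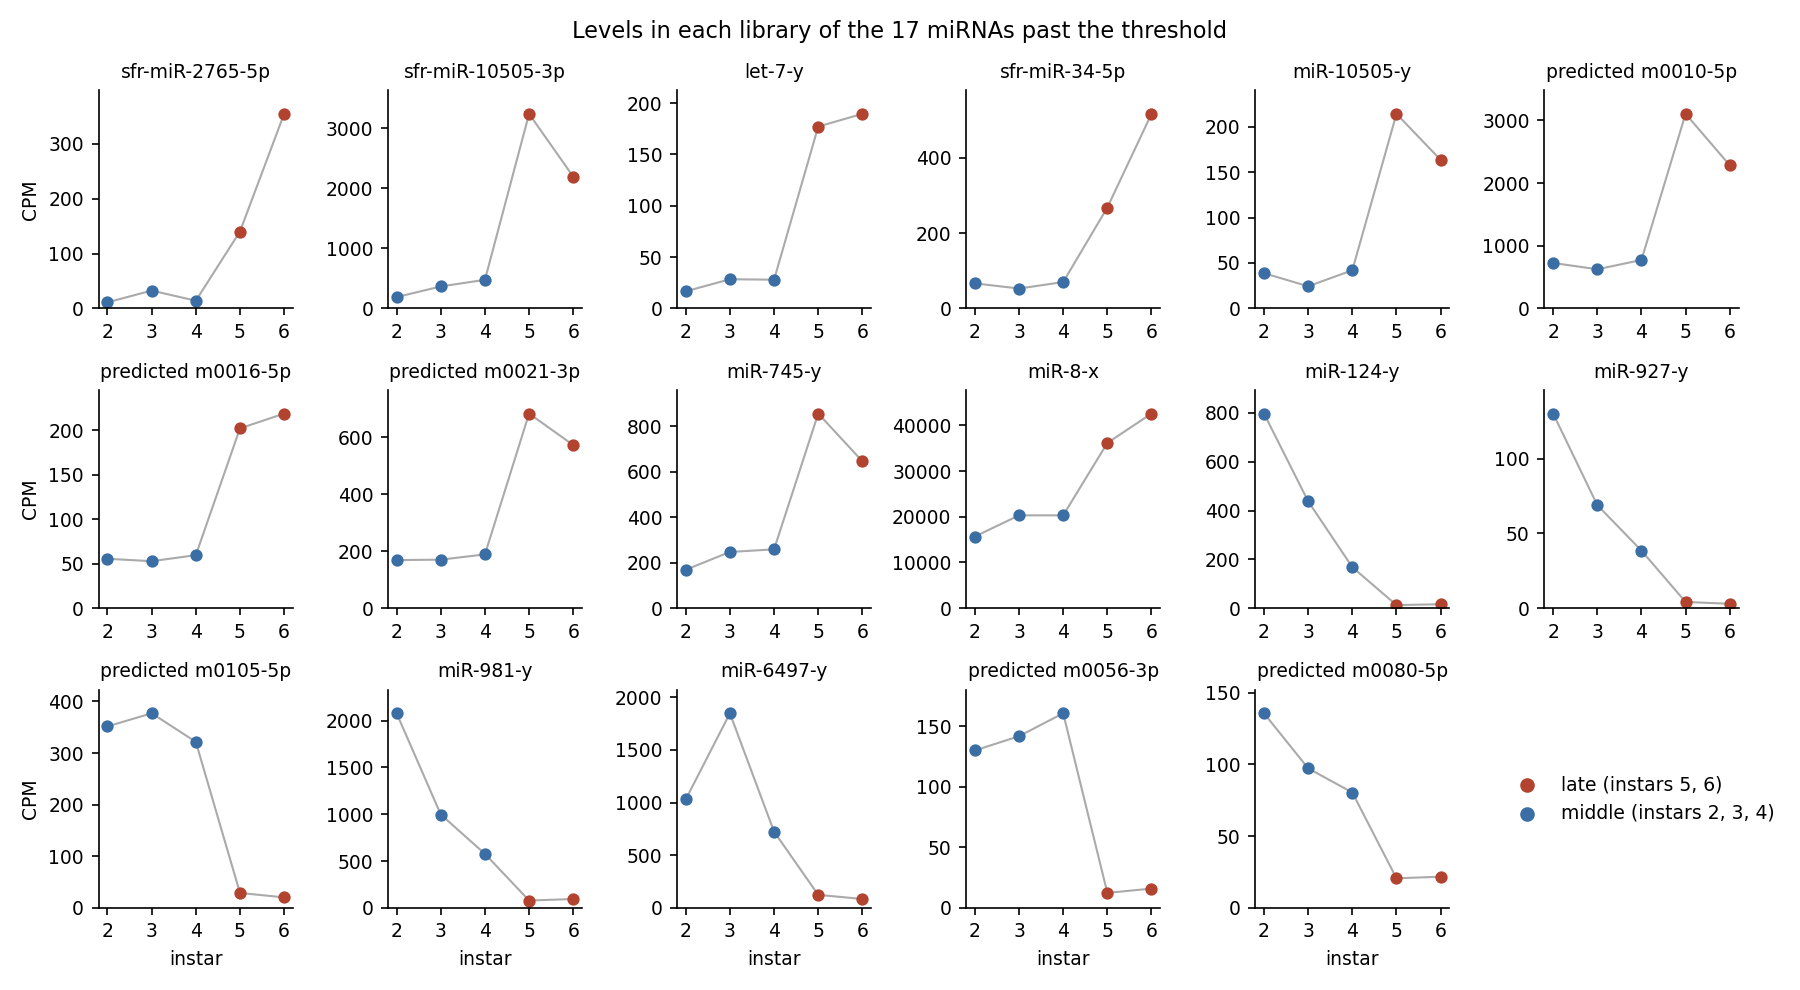
Level in CPM (vertical axes, each from 0) by instar (horizontal axes) of the 17 miRNAs past the threshold, 1 panel each and 1 point per library, late instars in red and middle instars in blue. In every panel both late points lie on 1 side of the 3 middle points; miR-10505-y, for example, has 214 and 163 CPM against at most 42.0 CPM.

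The called miRNAs that were lower included miR-124-y, the nervous system miRNA of flies and vertebrates. It had 12.4 and 15.9 CPM in instars 5 and 6, from 3 and 11 counts, against 797, 438 and 168 CPM in instars 2, 3 and 4. It fell by 4.99 on the log2 scale (SE 0.87, adjusted p = 0.0419 by edgeR), and each middle instar was below the one before it. The libraries are labelled with no tissue, and fewer cells of a type cannot be told apart from less miRNA per cell.

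miR-981-y had 78.3 and 94.0 CPM in instars 5 and 6, against 2079, 997 and 577 CPM in instars 2, 3 and 4 (log2 -3.81, SE 0.69, adjusted p = 0.0419 by edgeR). miR-927-y held 3 counts over instars 5 and 6 together and 75 over instars 2, 3 and 4, a ratio of 0.0383 with an exact 95% interval from 0.00772 to 0.116 for counting error only (adjusted p = 0.04996 by edgeR). Both share the shape of miR-124-y, with levels that were highest in instar 2.

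miR-6497-y had 124 and 83.9 CPM in instars 5 and 6, against 1030, 1849 and 724 CPM in instars 2, 3 and 4 (log2 -3.54, SE 0.56, adjusted p = 0.0338 by edgeR), with its highest value in instar 3. Predicted m0105-5p, a near copy of miR-10460-x, had 28.8 and 20.3 CPM in instars 5 and 6, against 352, 377 and 322 CPM in instars 2, 3 and 4 (log2 -3.84, SE 0.35, adjusted p = 0.0253 by edgeR). This was the lowest adjusted p of the comparison, and it was the 1 miRNA called when a change of at least 2-fold was required. Predicted m0056-3p had 12.4 and 15.9 CPM in instars 5 and 6, against 130.1, 141.9 and 161 CPM in instars 2, 3 and 4 (log2 -3.30). Predicted m0080-5p had 20.6 and 21.7 CPM in instars 5 and 6, against 136, 97.3 and 80.4 CPM in instars 2, 3 and 4 (log2 -2.28). Of these 3 predicted miRNAs, m0105-5p and m0056-3p were about level over the middle instars and m0080-5p was highest in instar 2.

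Among the steps between successive instars from instar 2 to instar 6, the step into instar 5 had the highest share of miRNAs that differed by at least 2-fold. For all 17 called miRNAs the largest of these steps, in the direction of the call, was that one, which the grouping itself favours. For miR-100-x, which was not called, the largest of these steps was into instar 3 (1.85 on the log2 scale, against 1.62 for the step into instar 5). The step from instar 1 into instar 2 was left out. On the scale of all 18 libraries, with 1 CPM added, it was a larger rise for miR-100-x than any later larval step. The same held for the called miR-745-y, let-7-y and miR-10505-y. Of these, let-7-y and miR-10505-y started near the floor, with 0 and 1.07 CPM in instar 1 and 12.3 and 28.8 CPM in instar 2. The largest steps named here therefore hold for instars 2 to 6 only. Over all miRNAs with at least 100 CPM in either instar of a step, and with 1 CPM added before the log2, 68 of 176 (38.6%) differed by at least 2-fold between instar 5 and instar 4, 41 higher and 27 lower in instar 5. The share was 25 of 155 (16.1%) for instar 3 against 2, 22 of 154 (14.3%) for instar 4 against 3 and 35 of 165 (21.2%) for instar 6 against 5. Without the vertebrate-named list the shares were 16.1%, 12%, 34.4% and 14.5% in order of age. These steps are between single libraries and have no replicate check. There were 19 rows with at least 100 CPM in instar 5 and at most 3 counts in instar 6, 13 of them on the vertebrate-named list and 0 of them among the 17.

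The let-7 complex showed large late to middle ratios, with 1 of 8 tested rows past the threshold and 5 of 8 without overlap, against 4.52% and 25.8% of all tested miRNAs that were called higher or lay above all middle values. The median log2 fold change of the 8 rows was 3.04. let-7-y, the 3p arm of let-7, was the row that rose, with 177 and 189.5 CPM in instars 5 and 6, against 16.6, 28.4 and 28.0 CPM in instars 2, 3 and 4 (log2 2.91, SE 0.39, adjusted p = 0.0323 by edgeR). Its 5p arm let-7-x, the temporal regulator itself, had 5264 and 6816 CPM in instars 5 and 6, against 163, 799 and 2087 CPM in instars 2, 3 and 4 (log2 2.57, SE 1.02, adjusted p = 0.153 by edgeR). miR-100-x had 129896 and 142084 CPM in instars 5 and 6, against 5546, 19969 and 42285 CPM in instars 2, 3 and 4 (log2 2.59, SE 0.83, adjusted p = 0.102 by edgeR). The groups of both did not overlap, and both differed several-fold among the middle instars, whereas let-7-y did not. The middle values of let-7-y rest on only 6, 7 and 8 counts in instars 2, 3 and 4. With instar number as a linear term in place of the 2 groups, edgeR called let-7-x and miR-100-x. They rose by 1.34 per instar (adjusted p = 0.0195) and by 1.23 per instar (adjusted p = 0.0195) on the log2 scale.

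The 8 rows are not 8 separate miRNAs, since miR-100-z, miR-99-x and miR-99-z are near copies of miR-100-x, and miR-125-z is one of miR-125-x. miR-100-z had 2529 and 2258 CPM in instars 5 and 6, against 49.8, 243 and 500 CPM in instars 2, 3 and 4 (adjusted p = 0.0838 by edgeR). miR-99-x had 3748 CPM in instar 5 and 480.3 CPM in instar 6, against 22.2, 68.9 and 388 CPM in instars 2, 3 and 4. miR-125-x, the remaining member of the fly transcript, had 1215 CPM in instar 5 and 0 CPM in instar 6, against 5.54, 4.05 and 357 CPM in instars 2, 3 and 4 (adjusted p = 0.588 by edgeR). miR-125-x was high in the same libraries, instars 5 and 4, as the vertebrate-named rows, as were miR-99-z and miR-125-z. Both miR-99-z and miR-125-z also had 0 CPM in instar 6, and the median of the 8 rows includes them. All rows of the complex together summed to 144041 and 151876 CPM in instars 5 and 6, against 5806, 21117 and 45715 CPM in instars 2, 3 and 4.

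**Figure D3:**
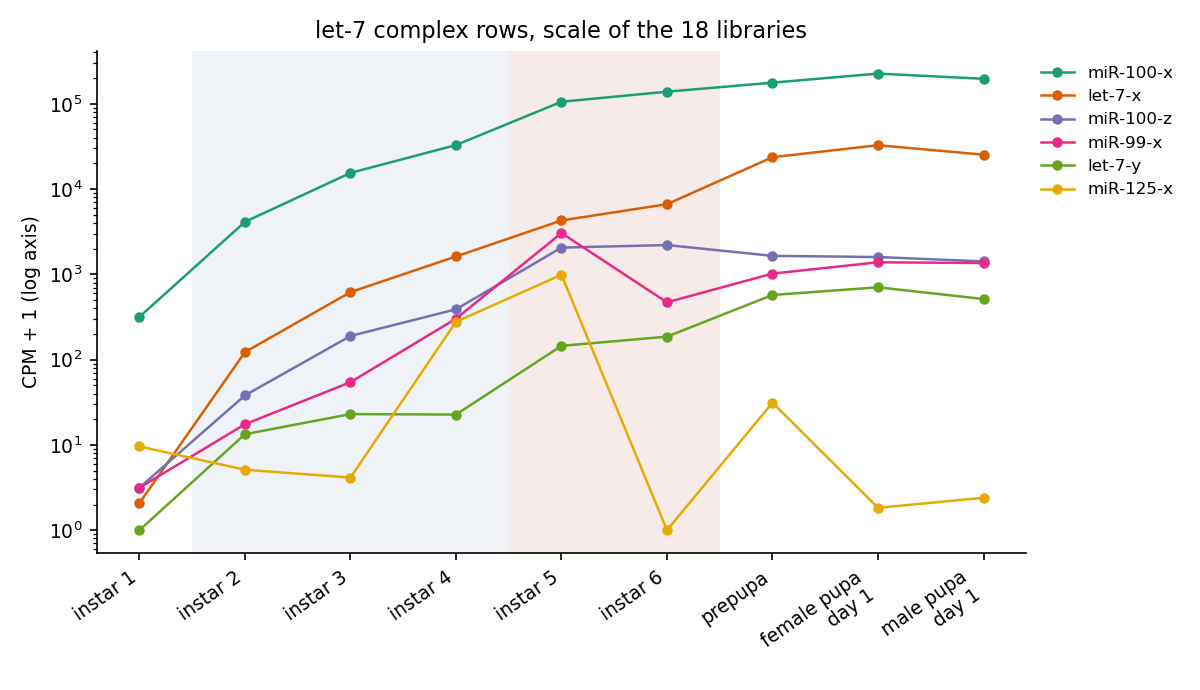
Level of 6 let-7 complex rows (CPM plus 1, log axis, scaled over the 18 libraries) in instars 1 to 6, the prepupa and the day 1 pupae, 1 library per point, with the middle instars shaded blue and the late instars red. miR-100-x and let-7-x climb at every instar, while miR-125-x is at 0 in instar 6.

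Of the 14 tested rows of the moulting and ecdysone list, sfr-miR-34-5p and miR-8-x rose and 0 fell, against 4.52% and 3.17% of all tested miRNAs, with a median log2 fold change of 0.38. The rest did not pass. miR-281, which acts on the ecdysone receptor in the silkworm, is led by sfr-miR-281-5p with 27287 and 43320 CPM in instars 5 and 6, against 16069, 21960 and 24069 CPM in instars 2, 3 and 4 (log2 0.77, SE 0.28, adjusted p = 0.128 by edgeR). miR-14, which acts on ecdysone signalling and fat storage in flies, lay the other way. sfr-miR-14-5p had 3674 and 1393 CPM in instars 5 and 6, against 8345, 7812 and 7909 CPM in instars 2, 3 and 4 (log2 -1.66, SE 0.45, adjusted p = 0.0801 by edgeR). Its 3p arm, sfr-miR-14-3p, had 1746 and 2606 CPM in instars 5 and 6, against 8935, 5132 and 3759 CPM in instars 2, 3 and 4 (log2 -1.45, SE 0.46, adjusted p = 0.0956 by edgeR). Neither arm of miR-14 overlapped between the groups. sfr-miR-14-5p was called by edgeR without instar 5 (log2 -2.51, adjusted p = 0.0365) and without the vertebrate-named list (log2 -1.63, adjusted p = 0.0492).

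In the growth and fat list, 1 of 13 rows rose, miR-8-x, and 0 fell, against 4.52% and 3.17% of all tested miRNAs, with a median log2 fold change of -0.00320. bantam-y, which promotes growth and blocks cell death in flies, had 113240 and 108285 CPM in instars 5 and 6, against 184289, 156482 and 119136 CPM in instars 2, 3 and 4 (log2 -0.47, SE 0.22, adjusted p = 0.198 by edgeR). Its instar 4 value lay near the late ones. sfr-miR-277-3p, linked to branched-chain amino acid breakdown in flies, was nearly level, with 8003 and 6050 CPM in instars 5 and 6, and 6584, 6729 and 6807 CPM in instars 2, 3 and 4 (log2 0.07, SE 0.18, adjusted p = 0.794 by edgeR).

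Of the 12 tested nerve and sense organ rows, 0 rose and miR-124-y fell, against 4.52% and 3.17% of all tested miRNAs. The list was matched on family names, and predicted m0021-3p, a near copy of miR-190-y, was therefore not counted. It was called higher (log2 1.83, adjusted p = 0.0323 by edgeR), whereas miR-190-x, given below, lay the other way. Of the 12, 6 lay below all middle values, against 31.2% of all tested miRNAs. miR-137-y, another nervous system miRNA, had 329.5 and 250.3 CPM in instars 5 and 6, against 2716, 1192 and 710 CPM in instars 2, 3 and 4 (log2 -2.41, SE 0.68, adjusted p = 0.0820 by edgeR). miR-190-x had 346 and 363 CPM in instars 5 and 6, against 2644, 1342 and 762 CPM in instars 2, 3 and 4 (log2 -2.16, SE 0.60, adjusted p = 0.0820 by edgeR). miR-137-y and miR-190-x were called with the linear term, by -0.87 and -0.75 per instar (adjusted p = 0.0134 and 0.0202 by edgeR), and both without the vertebrate-named list (adjusted p = 0.0492). miR-276-y, an abundant brain miRNA of flies, had 96575 and 97007 CPM in instars 5 and 6, against 79514, 85925 and 73966 CPM in instars 2, 3 and 4 (log2 0.28, SE 0.13, adjusted p = 0.199 by edgeR).

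The 4 rows of the muscle list had 0 calls, against 7.69% of all tested miRNAs. miR-1-y, the main muscle miRNA of animals, had 83876 and 87140 CPM in instars 5 and 6, against 46251, 67926 and 66225 CPM in instars 2, 3 and 4 (log2 0.51, adjusted p = 0.158 by edgeR). miR-133-z had 375 and 577 CPM in instars 5 and 6, against 1074, 868 and 836 CPM in instars 2, 3 and 4 (log2 -0.96, adjusted p = 0.0983 by edgeR). miR-1-x, the 5p arm of miR-1, had 49.4 and 18.8 CPM in instars 5 and 6, against 88.6, 89.2 and 136 CPM in instars 2, 3 and 4 (log2 -1.65, adjusted p = 0.123 by edgeR). miR-1-y and its near copy miR-1-z lay above all middle values, and miR-1-x and miR-133-z lay below them.

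In the miR-2 cluster, which also holds miR-71 and miR-13, 0 of 8 rows passed, against 7.69% of all tested miRNAs. Of the 8, 7 lay below all middle values, against 31.2% of all tested miRNAs, and the median log2 fold change was -0.90. sfr-miR-2c-3p had 2150 and 1496 CPM in instars 5 and 6, against 3776, 3389 and 3301 CPM in instars 2, 3 and 4 (log2 -0.94, SE 0.23, adjusted p = 0.0676 by edgeR). miR-71-y had 136 and 166 CPM in instars 5 and 6, against 471, 413 and 283 CPM in instars 2, 3 and 4 (log2 -1.36, SE 0.35, adjusted p = 0.0713 by edgeR). The 2 miR-2 rows sfr-miR-2a-3p and sfr-miR-2b-3p are near copies of each other.

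In the miR-277 cluster, with miR-317 and miR-34 as its other members, 1 of 8 rows rose, sfr-miR-34-5p, and 5 of 8 lay above all middle values, against 4.52% and 25.8% of all tested miRNAs. The 5 rows are not 5 separate miRNAs, since sfr-miR-317-3p, miR-317-y and miR-317-z are near copies with the same seed. sfr-miR-277-3p, given above, was nearly level. sfr-miR-317-3p and miR-317-y had adjusted p = 0.0937 and 0.0598 by edgeR. miR-317-y had 1606 and 1020 CPM in instars 5 and 6, against 620, 507 and 514 CPM in instars 2, 3 and 4 (log2 1.26, SE 0.29).

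The 38 tested rows of the Lepidoptera-restricted list had 2 calls, sfr-miR-10505-3p and sfr-miR-2765-5p, both higher, with 10 rows above and 10 below all middle values. Whether its members are absent from other insects was not checked. Numbered armyworm miRNAs such as miR-10505 were on the list only under names that begin with sfr-. miR-10505-y, the shifted form that was also called higher, was therefore not counted, nor were miR-10491-y and miR-10465-y. Over all tested miRNAs 4.52% were called higher, 25.8% lay above and 31.2% lay below all middle values, so the shares of the list were near those of all miRNAs. sfr-miR-6094-3p, the most abundant of them, had 32490 and 61659 CPM in instars 5 and 6, against 20901, 23885 and 24422 CPM in instars 2, 3 and 4 (log2 1.03, SE 0.29, adjusted p = 0.0828 by edgeR). Its other arm sfr-miR-6094-5p lay the other way, with 733 and 663 CPM in instars 5 and 6, against 1263, 1366 and 1385 CPM in instars 2, 3 and 4 (log2 -0.94, SE 0.21, adjusted p = 0.0560 by edgeR).

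The remaining lists held 0 called rows, against 7.69% of all tested miRNAs. These were the Hox cluster (9 tested), the clusters of miR-275 (3), miR-9 (6), miR-750 (5), miR-12 (3) and miR-193 (1), the embryo list (3), the ovary and germline list (2) and the vertebrate-named list (12). Their median log2 fold changes were -0.43, 0.19, -0.21, -0.53, -0.27, -2.20, -0.42, 0.90 and 2.86 in that order. In all 12 tested vertebrate-named rows the groups overlapped. sfr-miR-10-5p, encoded within the Hox genes of insects, was among the 10 most abundant miRNAs of the late instars and had 80182 and 64524 CPM in instars 5 and 6 and 82878, 75406 and 73186 CPM in instars 2, 3 and 4. Another of the 10, miR-31-x, an embryonic miRNA in flies, had 54583 and 54898 CPM in instars 5 and 6 and 44745, 54808 and 59799 CPM in instars 2, 3 and 4. Both overlapped between the groups. Of the 9 Hox cluster rows, however, 4 lay below all middle values and 0 above, against 31.2% and 25.8% of all tested miRNAs. Among the 4 was the other arm, sfr-miR-10-3p, with 1874 and 1934 CPM in instars 5 and 6, against 5247, 3944 and 3080 CPM in instars 2, 3 and 4 (log2 -1.10, adjusted p = 0.0688 by edgeR). Another was miR-993-y (log2 -3.18, adjusted p = 0.0820 by edgeR). miR-184-y, a germline miRNA in flies, had 31262 and 53165 CPM in instars 5 and 6, against 21961, 27522 and 25677 CPM in instars 2, 3 and 4 (log2 0.75, adjusted p = 0.120 by edgeR). In the miR-750 cluster, miR-750-x lay just outside the threshold, with 770 and 553 CPM in instars 5 and 6, against 1478, 1480 and 1703 CPM in instars 2, 3 and 4 (log2 -1.23, SE 0.25, adjusted p = 0.0534 by edgeR).

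Because many near copies and length forms of a miRNA share a seed, counts were also summed over rows with the same bases 2 to 8. Near copies with different seeds, such as the 2 rows of miR-10505 or sfr-miR-2a-3p and sfr-miR-2b-3p, stayed apart. Of 169 seeds tested, 29 were called by edgeR (17.2%), 13 higher (7.69%) and 16 lower (9.47%) in the late instars. Of the 17 seeds of the called miRNAs, 16 were among them. The exception was the seed of miR-745-y. Another 13 seeds were called without a called row of their own, 4 higher and 9 lower. One of the higher was GAACACA of miR-317, with 2760 and 2423 CPM in instars 5 and 6, against 1357, 1123 and 899 CPM in instars 2, 3 and 4 (log2 1.26, SE 0.24, adjusted p = 0.0370 by edgeR). CATAAGA of miR-970 had 10627 and 11949 CPM in instars 5 and 6, against 5490, 6644 and 6842 CPM in instars 2, 3 and 4 (log2 0.91, SE 0.16, adjusted p = 0.0370 by edgeR). A lower one was TCAGCGG of miR-6094, with 733 and 663 CPM in instars 5 and 6, against 1268, 1366 and 1388 CPM in instars 2, 3 and 4 (log2 -0.88, SE 0.19, adjusted p = 0.0410 by edgeR). GTTGGAC, the seed of miR-750-x, was also lower (log2 -1.17, SE 0.23, adjusted p = 0.0370 by edgeR). These seeds were picked after their values had been seen. Leaving out instar 2, 3 or 6 left 0 seeds called, with 47, 41 and 42 at an unadjusted p under 0.05, and leaving out instar 4 or 5 left 4 and 12.

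The balance of the 2 arms of a hairpin was described for 37 names whose -5p and -3p, or -x and -y, rows together had at least 100 counts in each of the 5 libraries. In 18 of them the 5p share of the late instars did not overlap that of the middle instars, and in 4 of these the means were at least 10 points apart. The 37 names are not all separate. miR-281, miR-10 and miR-317 are each listed with and without sfr-, and each pair has the same shares once near copies are added. Both names of miR-281 and both of miR-10 are among the 18. The 5p arm of miR-8 made up 30.1% and 42.6% of both arms in instars 5 and 6, against 17.9%, 22.6% and 22.2% in instars 2, 3 and 4. With the near copies of each arm added, the 5p shares of miR-8 were 23.1% and 32.4% in instars 5 and 6, against 14%, 18.1% and 17.6% in instars 2, 3 and 4. The miR-6497 hairpin had 93.8% and 93.2% from its 5p row in instars 5 and 6, against 42.4%, 45.3% and 83.1% in instars 2, 3 and 4. Its share in instar 4 lay nearer to the late instars than to instars 2 and 3.

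The 5p share of sfr-miR-317 was 18.1% and 12.1% in instars 5 and 6, against 24%, 25.8% and 42.7% in instars 2, 3 and 4. With near copies added, sfr-miR-317 had 8.31% and 7.003% in instars 5 and 6, against 14.3%, 15.5% and 23.3% in instars 2, 3 and 4. That of miR-281 was 61.9% and 73.8% in instars 5 and 6, against 55.9%, 54.4% and 59.8% in instars 2, 3 and 4. With near copies added, miR-281 had 94.1% and 95.5% in instars 5 and 6, against 88.6%, 90.5% and 92.1% in instars 2, 3 and 4, so the sizes of both differences rest on which rows are counted. A smaller difference was seen in sfr-miR-6094, with 2.21% and 1.06% in instars 5 and 6, against 5.70%, 5.41% and 5.37% in instars 2, 3 and 4. No test was run on these shares.

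**Figure D4:**
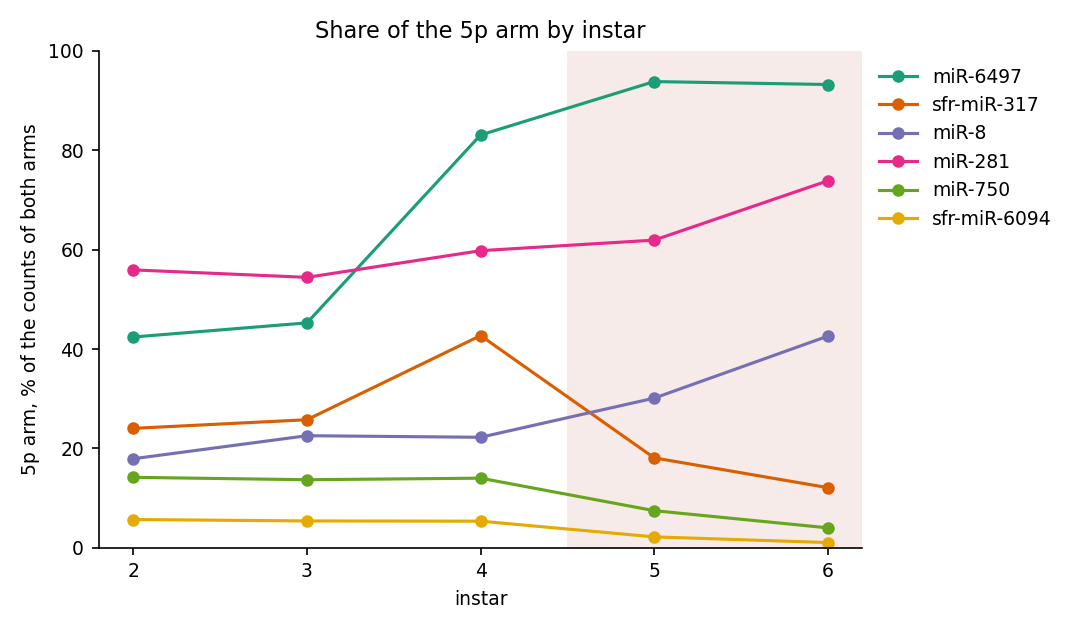
Share of the 5p row in the counts of the 5p and 3p rows together (percent, vertical axis) by instar for 6 names, 1 library per point, with the late instars shaded. The 5p share of miR-8 is 30.1% and 42.6% in the late instars, and those of sfr-miR-317 and miR-750 are lower there than in every middle instar.

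The called miRNAs were then followed in libraries that the comparison did not use, on the scale of all 18 libraries and with no test. sfr-miR-10505-3p had 45.1 CPM in instar 1, 2633 and 2139 CPM in instars 5 and 6 and 19369 CPM in the prepupa, with 4365 and 5276 CPM in the day 1 female and male pupae. sfr-miR-2765-5p continued upward, with 10.7 CPM in instar 1, 114 and 346 CPM in instars 5 and 6, 1641 CPM in the prepupa and 2769 and 4020 CPM in the day 1 female and male pupae. In the egg, before the larva, it had 3901 CPM. let-7-y was listed at 0 in instar 1 and had 572 CPM in the prepupa, above its 144 and 185 CPM in instars 5 and 6. All 3 therefore had their late larval levels between the young larva and the prepupa.

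sfr-miR-34-5p did not follow this order. On the same scale it had 103 CPM in instar 1, 49.4, 40.8 and 54.2 CPM in instars 2, 3 and 4, 218 and 504 CPM in instars 5 and 6 and 22.9 CPM in the prepupa. The day 1 female and male pupae had 40.9 and 42.0 CPM. Both late instars therefore stood above the earlier instars, the prepupa and the day 1 pupae. They were not the highest of the series, since the day 4 female and male adults had 921 and 1208 CPM. miR-8-x stood highest in instar 6, with 7160 CPM in instar 1, 41568 CPM in instar 6 and 21256 CPM in the prepupa.

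miR-124-y and miR-981-y also stayed below their middle instar levels in the prepupa and the day 1 pupae. miR-124-y had 947 CPM in instar 1, 10 and 15.5 CPM in instars 5 and 6, 30.5 CPM in the prepupa and 26 and 41.7 CPM in the day 1 female and male pupae. miR-981-y had 2400 CPM in instar 1, 63.6 and 91.8 CPM in instars 5 and 6, 127 CPM in the prepupa and 115 and 207 CPM in the day 1 female and male pupae. miR-6497-y differed in the young larva, with 135 CPM in instar 1, against 765, 1430.5 and 561 CPM in instars 2, 3 and 4 on this scale.

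**Figure D5:**
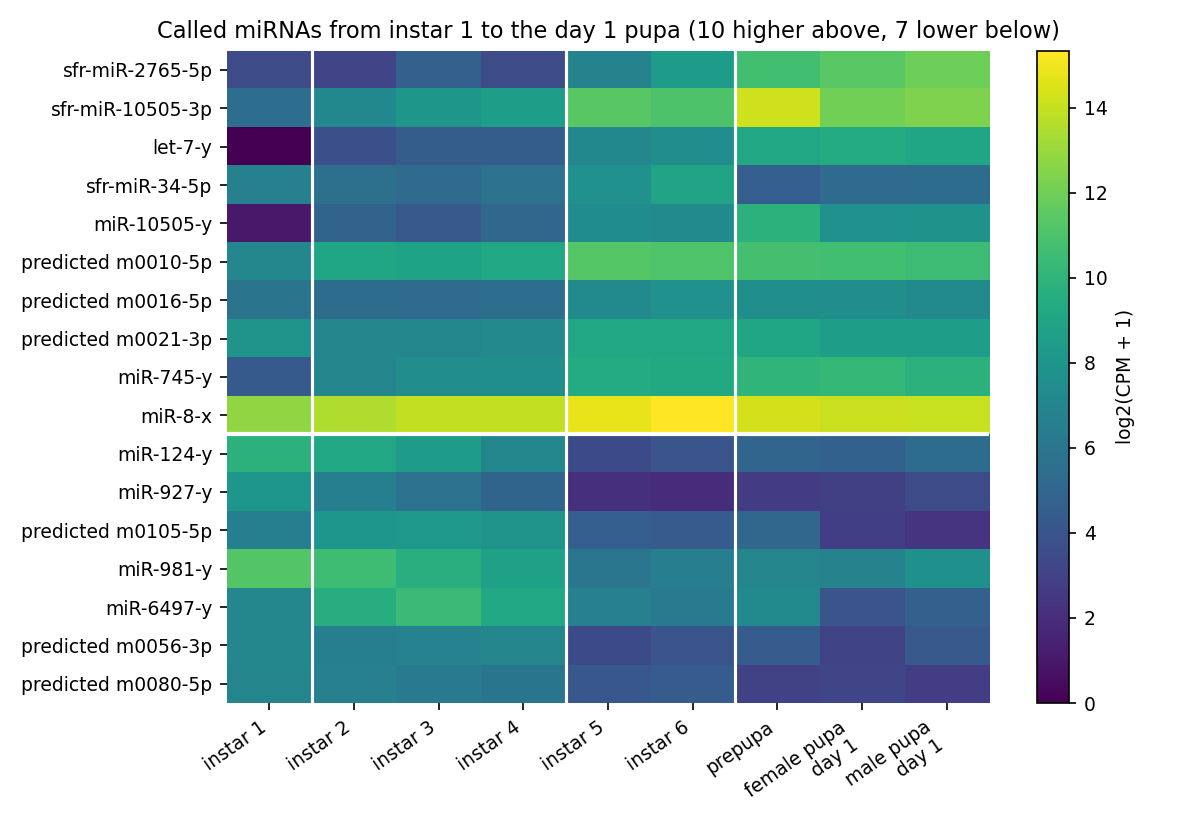
Level of the 17 called miRNAs as log2 of CPM plus 1, scaled over the 18 libraries (colour), in instars 1 to 6, the prepupa and the day 1 pupae, with 10 higher rows above the white line and 7 lower rows below it. sfr-miR-34-5p has its highest colour in instar 6, where it had 504 CPM, and is dark again in the prepupa at 22.9 CPM.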

How the data were processed

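The deposited table lists 741 rows with a name, a sequence and raw counts for 18 small RNA libraries, which are whole numbers in the table the authors deposited. The labels' protocols name Trizol extraction, TruSeq small RNA libraries and an Illumina HiSeq instrument; they mention 9 libraries where the series has 18. Which aligner, caller and build were used was not given in the sources used here. Rows that repeated both a sequence and its counts were joined into 1, which left 660.

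Counts of instars 5 and 6 were tested against those of instars 2, 3 and 4 with edgeR 4.0.16 in R 4.3.3 (quasi-likelihood test, robust dispersions, TMM factors over the 5 libraries) for rows with a mean of at least 10 counts. Benjamini-Hochberg adjustment ran over all tested rows, with a threshold of 0.05. The SE, an approximation, comes from the log2 fold change and the F statistic. Named miRNAs were the 12 largest rises and 12 largest falls past the threshold whose mean reached 100 CPM, the 10 most abundant in the late instars, and members of the lists; the other called rows were added after their values had been seen. The members and lists were chosen with earlier results of these data known. Names of the lists were matched to family names. Alternatives used DESeq2 1.42.0 and limma 3.58.1. Figures and tables used Python 3.11.15, pandas 2.3.3 and matplotlib 3.10.9. The test was checked on simulated counts with an assumed spread that was not fitted to these data. It called 57.4% of rows changed 4-fold, 100% of rows changed 16-fold and 0.73% of unchanged rows. Changes of 4-fold can therefore be missed.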

Additional observations from a re-analysis of the deposited data

How the results depend on the processing

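None of the 17 calls changed sign under any alternative. The count of 17 (10 higher, 7 lower) was 42 with library totals (32 lower), where the median log2 change of all miRNAs moved to -0.29, and 28 (18 lower) with a mean of at least 50 counts. It was 68 (29 higher, 39 lower) with the DESeq2 Wald test, 48 (16 higher, 32 lower) with limma, 32 (20 lower) with all 18 libraries in the fit, 36 (22 lower) with instar as a linear term and 1 (0 higher, 1 lower) against a 2-fold minimum. Without the vertebrate-named list, an alternative chosen after the data had been seen, it was 46 (17 higher, 29 lower). All 17 were among the calls with library totals, DESeq2, limma and without that list, 11 with all 18 libraries, and 8 with the linear term. Leaving out 1 library gave 0 to 3 calls, 0 to 1 higher and 0 to 2 lower. For seeds, the count of 29 was 61 with DESeq2 (30 higher, 31 lower) and had 33 lower with library totals; leaving out 1 library gave 0 to 12, with 0 to 8 higher and 0 to 4 lower. Where instar 5 or 6 is left out, the lone late library is assumed to vary like the middle ones. The cause of these differences was not tested. Of 127 list and abundant rows that were not called, 0 reversed and 135 of 2200 values passed the threshold under an alternative. No paired analysis was possible because the labels carry no replicate numbers.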
